A study of Mus musculus with 16 samples.

Results

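The mRNAs of uninjured mouse dorsal root ganglia (DRG) were ranked by how many ribosome footprints they carried for their abundance. Members were protein-coding genes with at least 128 reads over the 2 sham DRG footprint libraries and at least 128 over the 2 sham DRG mRNA-seq libraries. This gave 10773 genes of 22040 protein-coding genes in the count table, or 48.9%. Each gene's translational efficiency (TE) was taken within a lysate as the log2 ratio of footprint to mRNA reads, scaled so that the median member had a value of 0. A log2 TE of 1 therefore stands for a ratio 2 times that of the median gene, and 0 does not mark equal numbers of ribosomes and mRNAs.

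The sham DRG samples came from female C57BL/6J mice operated on at 8 weeks of age, in which the sciatic nerve was exposed on both sides and its branches were left uncut. Lumbar DRG were collected 30 days after surgery, 10 animals were pooled into each of the 2 lysates, and each lysate was split into a footprint and a poly(A)+ mRNA library. DRG after spared nerve injury (SNI, the same strain, sex, age and day with the tibial and common peroneal branches cut) and the sham dorsal lumbar spinal cord served for comparison, with 2 pools per group. P-values thus describe counting error and the fitted spread between these pools, not the spread between single animals. That fitted spread was small, a coefficient of variation of 0.0099 in the DRG fit and 0.0153 in the fit with cord. A whole ganglion holds neurons, glia, vessels and immune cells, so that fewer cells of a type and less RNA per cell cannot be told apart.

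Initiation is usually the slow step of translation. The small ribosomal subunit joins the capped 5′ end, scans to a start codon and is met by the large subunit, and short upstream open reading frames, structures bound by regulatory proteins and the bases around the start codon are known to set how often this succeeds. A footprint is the roughly ribosome-sized stretch of mRNA that survives RNase I, so footprints fall mostly in coding sequence while mRNA fragments also fall in the untranslated regions (UTRs). In sensory neurons much of the study of translation has dealt with the kinase mTOR, the cap-binding protein eIF4E and stress signalling through eIF2.

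The libraries were deep and the tissue was what its label said. Sham mRNA libraries held 20165129 and 18176471 reads in genes, and sham footprint libraries 7467803 and 17580332. All 10 sensory neuron markers were members, whereas only 2 of 11 markers of spinal cord and oligodendrocytes were, and these 11 took 0.00839% and 0.00752% of the mRNA reads. The replicate mRNA libraries differed by 1.04 times the sampling variance per gene and the replicate footprint libraries by 1.22 times, and each was counted as a sample of its own.

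TE spread widely across genes and hardly at all between pools. The 5th percentile of log2 TE was −1.53 and the 95th was 1.34, a 7.33-fold range, and single genes ran from −5.87 to 5.51. The SD across genes was 0.90, while the SD between the 2 lysates of a gene had a median of 0.06 and a 95th percentile of 0.26. In 10580 members (98.2%) the lysates lay within 0.5 of each other, and in 3 they differed by more than 1. Across the 10773 genes, the values of the lysates had a Pearson correlation of 0.98, a description in which both axes share gene length and base composition.

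With edgeR's quasi-likelihood test against a 1.5-fold departure from the median gene, 2161 members were called high (20.1% of those tested) and 2207 low (20.5%) at an adjusted p under 0.05. Together the 4368 calls made up 40.5% of members, and 6405 genes were called neither way. Over genes of every type the share was 41.0% of 10926. These shares are the background against which each count below is to be read. Scaling by library size instead of the median gene gave 1673 high and 2745 low, since the median gene's raw ratio was −0.15 in lysate 1 and −0.14 in lysate 2.

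**Figure D1:**
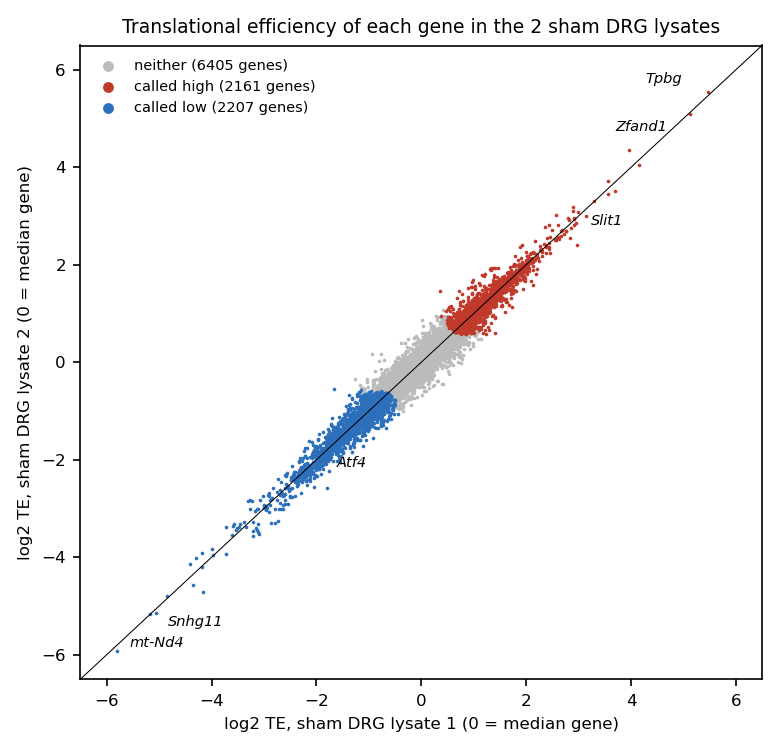
Log2 TE of each of the 10773 members in sham lysate 1 (horizontal axis) and sham lysate 2 (vertical axis), with genes called high, low or neither in separate colours. Points lie along the diagonal from −5.87 to 5.51, and 98.2% of them fall within 0.5 of it.

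How a gene's mRNA is laid out moved with its TE. Coding sequence made up a median of 69.3% of the transcript in genes called high and 36.7% in genes called low, against 53.1% in all members. The median 3′ UTR was 712 bases in high genes and 1593 in low genes. From the lowest to the highest of 5 equal bins of coding share, the median log2 TE climbed from −0.57 to 0.44, and across 10764 genes the Spearman correlation was 0.41.

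A scale that takes layout into account was set beside the first, chosen after the values were seen. On it, footprints were divided by the coding positions and mRNA reads by the transcript positions at which a 30-base stretch is unique among annotated transcripts, which could be done for 10645 genes. The Spearman correlation with coding share then turned to −0.43, and the bin medians ran the other way, from 0.68 to −0.39. On this scale 2130 genes (20.0%) were called high and 2270 (21.3%) low. The 2 scales correlated at 0.57 (Pearson), 903 genes (8.48%) were called high on both and 1113 (10.5%) low on both. Of the genes called low by the plain ratio, 240 were called high per unique position, while none of those called high became low. How the deposited counts treated reads in the UTRs is not given in the sources used here, so that neither scale can be preferred, and a value is called "per unique position" below wherever it is on the second.

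**Figure D2:**
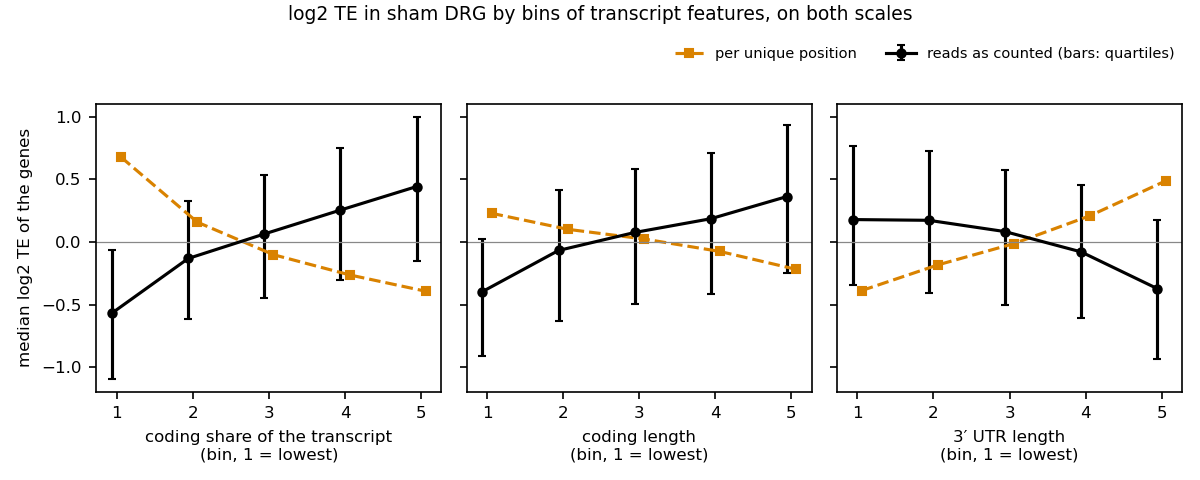
Median log2 TE, as counted and per unique position, in bins of members by transcript feature. The features are coding share, coding length and 3′ UTR length. The medians rise with coding share as counted (−0.57 to 0.44) and fall with it per unique position (0.68 to −0.39). With coding length they rise as counted (−0.40 to 0.36) and fall per unique position (0.23 to −0.22). With 3′ UTR length they fall as counted (0.18 to −0.37) and rise per unique position (−0.39 to 0.49).

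Upstream start codons moved with TE in the same direction on both scales. Genes with no ATG in the 5′ UTR had a median log2 TE of 0.10 (n = 5127, 23.4% high and 16.5% low), genes with 1 had −0.04, genes with 2 had −0.07, and genes with 3 or more had −0.20 (n = 1880, 14.7% high and 27.9% low). Per unique position these medians were 0.09, −0.05, −0.10 and −0.12. Among the genes called on both scales, 52.5% of the high and 32.4% of the low set had no upstream ATG, against 48.5% of all members. Those sets had nearly the same median coding share, 54.3% and 54.8%. The scales run opposite ways with coding share, so that a call on both would tend to level it. The match therefore does not separate layout from upstream ATGs. The 5′ UTRs of the low set were richer in G and C, with a median of 68.8% against 63.1% in the high set and 65.4% in all.

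The bases around the main start codon also differed. A purine at the 3rd base before the ATG and a G just after it are the textbook features of a good start. The purine was present in 87.2% of 10542 members, in 91.6% of 890 genes high on both scales and in 80.7% of 1066 genes low on both. Genes with neither feature were 3.82% of the high and 9.19% of the low set. The G alone was as frequent in the high set (51.0%) as in the low set (50.4%). Start sites of 3 genes with high and 3 with low TE are shown because these genes recur below, read from GENCODE M21 on GRCm38, with the purine or its replacement, the ATG and the next base in capitals.
Slit1 (high), chr19:41743400-41743417, minus strand: gaaggcAccATGGcgcta
P2rx3 (high), chr2:85035291-85035308, minus strand: tttctcAgtATGAactgt
Fasn (high), chr11:120822835-120822852, minus strand: agaagaGccATGGaggag
Atf4 (low), chr15:80256290-80256307, plus strand: ccccacAacATGAccgag
Rbms3 (low), chr9:117251793-117251810, minus strand: cccagcTacATGGgcaaa
Selenow (low), chr7:15922272-15922289, minus strand: cgtgcaGctATGGcgctc
Of these, only Rbms3 lacked the purine, and P2rx3 and Atf4 lacked the G, so that single genes at both ends of the ranking carried either form.

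Genes whose coding sequence is mostly shared with other annotated genes were more frequent among low than among high genes. A stretch counted as shared if any other gene held it on either strand, be it a copy or an overlapping gene. In all, 579 members (5.38%) had less than 50% of their coding positions unique. Their median log2 TE was −0.50 and 41.5% of them were called low. They made up 10.9% of low genes and 2.92% of high genes, 27 of the lowest 50 and 8 of the lowest 12. Csnk2a1, a catalytic subunit of casein kinase 2, had 44 and 110 footprint reads against 3829 and 3487 mRNA reads with 2.6% of its coding sequence unique. Pcp4, Chchd2, Map1lc3b and Eif1 stood as low with at most 4.4% unique. The part that shared sequence plays in these values was not tested, and low values of such genes are uncertain.

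Among the lowest genes with unique coding sequence, mitochondrially encoded mRNAs came first. mt-Nd1, a subunit of complex I, had 599 and 1411 footprint reads against 64373 and 58004 mRNA reads, a log2 TE of −5.17 in both lysates. Of 13 such genes 7 were members and all 7 were called low, with a median of −3.96 and a range up to −2.65 for mt-Co1. Together they took 1.51% and 1.54% of the mRNA reads but 0.0799% and 0.0841% of the footprints. Mitochondrial mRNAs are read by the organelle's own ribosomes, and whether those were recovered like cytosolic ones was not tested. By contrast, the 69 nuclear genes of oxidative phosphorylation had a median of 0.04, with 15 high and 3 low, and the 73 proteins of the mitochondrial ribosome −0.11, with 8 high and 6 low.

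**Figure D3:**
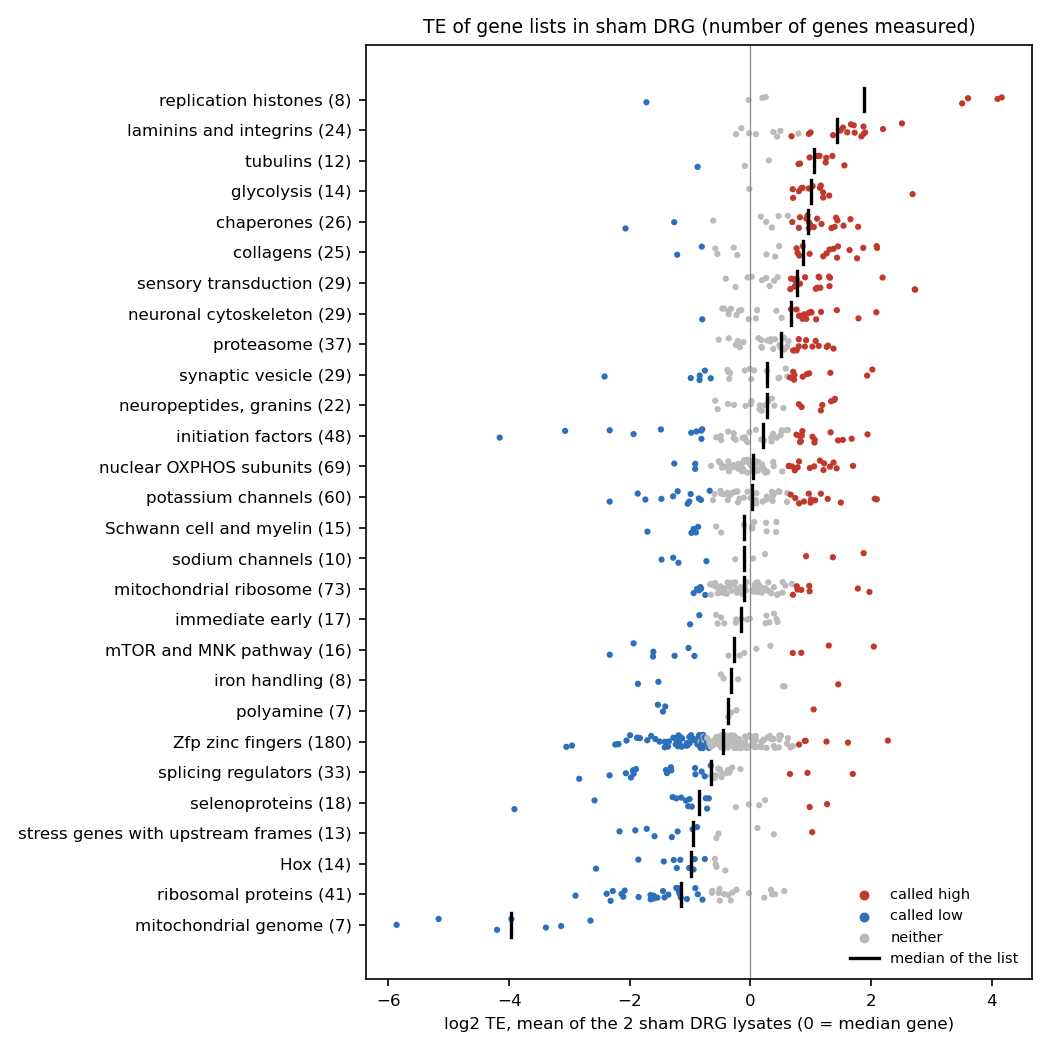
Log2 TE of the members of each gene list (points), with the list median marked, and the median gene at 0. Mitochondrially encoded genes lie lowest (median −3.96), histones reach highest (median 1.88), and laminins and integrins (1.43) lie above Hox genes (−0.98).

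Nuclear genes with low TE and unique sequence included regulators of transcription and RNA. Snhg11, annotated as protein-coding with only 4.5% of its transcript coding, had 330 and 731 footprints against 32975 and 29688 mRNA reads (log2 TE −5.06 and −5.15, and −1.70 per unique position). Mllt6, a chromatin-associated protein, had 80 and 202 footprints against 2758 and 2447 mRNA reads, with values of −3.52 and −3.40. Mbd6, of the methyl-CpG-binding domain family, stood at −3.48 and −3.38, and per unique position it was lower still, at −4.07. This group of lowest genes with at least 90% unique coding sequence was chosen after values were seen. Among deeply read genes, the lowest outside the mitochondria was Rbms3, an RNA-binding protein, with 760 and 1749 footprints against 16836 and 15200 mRNA reads. Its log2 TE was −2.89 and −2.93 (per unique position −2.60), and in cord it was −1.51 and −1.41.

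At the other end, a cell-surface glycoprotein led. Tpbg (chr9:85842380-85847040, plus strand) had 1322 and 3269 footprint reads against 89 and 79 mRNA reads, a log2 TE of 5.46 and 5.55. Zfand1, a zinc-finger protein linked to stress granule clearance, followed at 5.13 and 5.09, with 1396 and 3076 footprints over 119 and 103 mRNA reads. In Zfand1 only 18.5% of the coding positions were unique. Slc9a7, a sodium/proton exchanger of the Golgi, had 3.56 and 3.73, and Chrna7, the α7 nicotinic acetylcholine receptor subunit, had 1322 and 3050 footprints over 404 and 350 mRNA reads, or 3.29 and 3.31. Both were also high per unique position, at 2.73 and 2.65.

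The highest of the deeply read genes had varied roles. Slit1, a secreted guidance cue, had 3774 and 8853 footprints against 1412 and 1193 mRNA reads, with a log2 TE of 3.04 ± 0.06 (SD, n = 2). P2rx3, the ATP-gated channel of nociceptors, had 3206 and 7831 footprints over 1411 and 1392 mRNA reads, or 2.76 and 2.68. Fasn, which makes palmitate, had 9631 and 22594 over 4867 and 4442, or 2.56 and 2.54. Prepl, a serine hydrolase, stood between them with 2.69 and 2.71. Usp9x (2.34 and 2.42), Prpf8 of the spliceosome (2.39 and 2.36), fibronectin (Fn1, 2.27 and 2.38) and Uba1, the main ubiquitin-activating enzyme (2.16 and 2.11), completed this end. All of these were called high on both scales.

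Ribosomal protein mRNAs were mostly low, and the list that holds the elongation factors was not. Ribosomal proteins and elongation factors carry a pyrimidine tract at the 5′ end that places them under mTOR. Of 82 ribosomal proteins 41 were members, 25 of them low and none high, with a median of −1.15, but 37 had under 50% unique coding sequence. Per unique position, a value that 19 of them had, 10 were low and 1 high with a median of −0.90, and 6 were low on both scales. Another 31 failed the minimum on footprints alone. Of 19 members of the list of elongation factors and other pyrimidine-tract mRNAs, 4 were high and 2 low (median −0.08, range −2.42 to 1.94). Vim stood at 1.49 and 1.45. The low ones were Nap1l1 at −2.45 and −2.38 and the elongation factor subunit Eef1b2 at −0.76 and −0.71. Across all members, genes with a run of at least 6 pyrimidines beginning within the first 4 bases had a median of 0.12 (n = 708) against −0.02 (n = 7421) in those with under 3.

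Initiation factors lay on both sides of the median gene. Of 48 members, 14 were high and 10 low, with a median of 0.20 (12 and 9 per unique position, median 0.03). Subunits of eIF3 and eIF2B were among the high genes, with Eif3c at 1.54 and 1.53 and Eif2b2 at 1.58 and 1.78. Eif4e, the cap-binding protein, had 85 and 174 footprints over 915 and 815 mRNA reads, or −1.84 and −2.03, yet 1.98 per unique position, where 13% of its transcript codes and 21.1% of the coding positions are unique. Its inhibitor Eif4ebp2 behaved likewise, with −2.42 and −2.25 as counted and 0.67 per unique position. Eif4g2, which initiates without the cap-binding protein, was low on both scales at −1.51 and −1.46.

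The mTOR pathway itself ran from one end to the other. Mtor had 1813 and 4285 footprints against 1353 and 1150 mRNA reads, a log2 TE of 2.00 and 2.09, and was high on both scales (1.09 per unique position). Of its partners, Rptor (0.94 and 0.75) and Rictor (0.70 and 0.71) were called high as counted, as was the inhibitor Tsc2 (1.28 and 1.31). Rictor lost its call without sham lysate 2, at 0.69. Akt1, an upstream kinase, was low on both scales at −0.93 ± 0.10 (SD, n = 2). The 2 kinases that phosphorylate eIF4E, Mknk1 (0.31 and 0.35) and Mknk2 (−0.20 and −0.16), were not called. Over the 16 members there were 4 high and 7 low with a median of −0.27, which became 0.20 per unique position.

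Stress-response mRNAs with upstream open reading frames were low. Such mRNAs are known for upstream frames that hold down translation of the main frame until eIF2 is phosphorylated. Of 13 members, 8 were low and 1 high, with a median of −0.96, and 7 were low on both scales. Atf4, the central transcription factor of the integrated stress response, had 409 and 965 footprints against 4530 and 4195 mRNA reads. Its log2 TE was −1.89 and −1.93 (edgeR adjusted p = 3e-208), and −2.31 per unique position. Atf5 (−2.13 and −2.21), Ddit3, which encodes CHOP (−1.64 and −1.80), and Ppp1r15a, which encodes the phosphatase subunit GADD34 (−1.59 and −1.59), sat beside it. Eprs, a tRNA synthetase, was the one high member with 1.01 and 1.03, and fell to 0.02 per unique position.

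Most selenoprotein mRNAs were low as counted. These mRNAs read an in-frame TGA, elsewhere a stop, as selenocysteine. Of 18 members 12 were low and 2 high, with a median of −0.86. Per unique position, a value that 17 of them had, 8 were low and 1 high with a median of −0.64. On both scales 8 were low. All 18 carried the in-frame TGA, found in only 21 of 10744 members (0.195%). Shown are the TGA in capitals and 12 bases on either side for 5 mRNAs with an early and 3 with a late codon, on GRCm38, picked after values were seen and including Selenom and Selenos, which lie apart from the rest of their kind; the Selenow stretch crosses an intron.
Selenow, codon 13 of 88, chr7:15920452-15922256, minus strand: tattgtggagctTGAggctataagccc
Gpx1, codon 47 of 201, chr9:108339439-108339465, plus strand: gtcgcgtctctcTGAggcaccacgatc
Selenom, codon 48 of 145, chr11:3516261-3516287, plus strand: acctgtggaggaTGAcagttgaatcgc
Selenop, codon 59 of 380, chr15:3274836-3274862, plus strand: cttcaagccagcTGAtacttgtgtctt
Gpx4, codon 73 of 197, chr10:80054725-80054751, plus strand: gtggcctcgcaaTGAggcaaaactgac
Selenos, codon 189 of 190, chr7:66088832-66088858, plus strand: tcatctggcggcTGAaactaagactct
Txnrd1, codon 498 of 499, chr10:82896025-82896051, plus strand: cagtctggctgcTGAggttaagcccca
Selenoo, codon 665 of 667, chr15:89099963-89099989, plus strand: ctctgtgtaacaTGAtcctcataaagg

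The early codons stood beside low TE in all of these but Selenom, and the late ones beside values from low to high. Selenow, the smallest, had 1131 and 2459 footprints against 19529 and 17486 mRNA reads, a log2 TE of −2.53 and −2.64. Gpx1, a peroxide-reducing enzyme, had 817 and 2062 over 5596 and 5048, or −1.20 and −1.10. Selenop, which carries selenium in blood and holds 10 such codons, had −1.06 and −1.08, and Gpx4, which reduces lipid peroxides, had −0.92 and −1.14. Gpx4 had only 16.6% of its coding positions unique. Txnrd1, whose selenocysteine is the last residue but one, stood at 0.14 and 0.15, and Selenoo at 1.24 and 1.30. Selenom, an early-codon mRNA, was not called at −0.24 and −0.25, while Selenos, with a codon as late as that of Txnrd1, was low at −0.62 and −0.76 and low again per unique position (−0.74).

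Across the 18, the position of the first TGA as a share of the coding sequence had a Spearman correlation of 0.65 with log2 TE, and 0.71 per unique position in 17. Among the 11 mRNAs with the codon in the first 80% of the coding sequence, 9 were low and none high, with a median of −1.03. Among the 7 with a later codon, 3 were low and 2 high, with a median of −0.03. That split was chosen after the values were seen. The 3 low ones among the late codons were Selenos, Msrb1 (−0.70 and −0.73, and 0.03 per unique position) and Selenok, at −3.99 and −3.83, with 18.4% of its coding sequence unique and 17% of its transcript coding. Without sham lysate 2, Selenos (−0.62) and Msrb1 (−0.70) were no longer called.

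**Figure D4:**
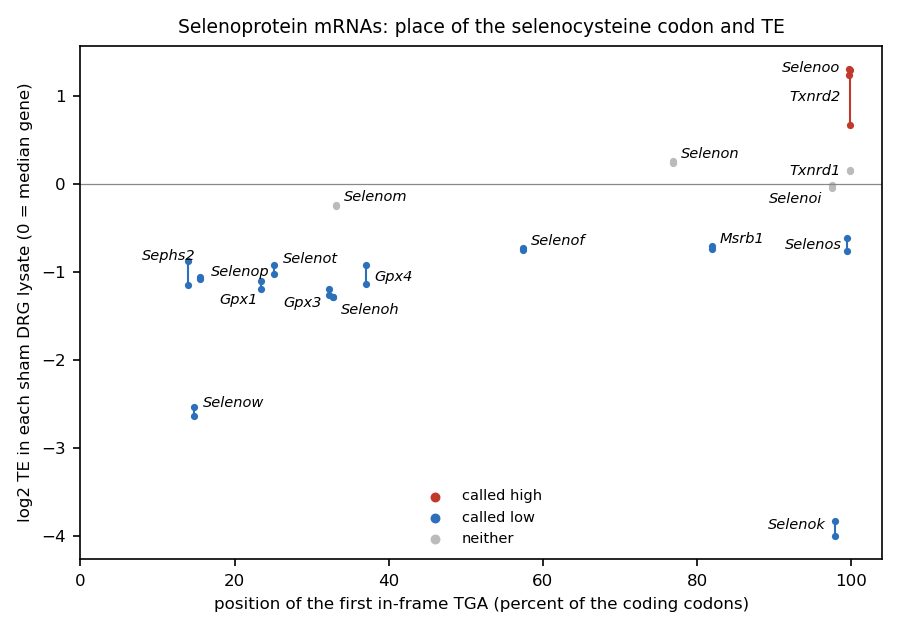
Log2 TE of the 18 selenoprotein mRNAs (vertical axis) against the position of the first in-frame TGA as a percentage of the coding sequence (horizontal axis). The 11 mRNAs with a codon in the first 80% have a median of −1.03, and the 7 later ones a median of −0.03 with Selenok alone at −3.91.

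Both ferritin mRNAs were low. Ferritin mRNAs carry an iron-responsive element, a hairpin whose loop is bound by the iron regulatory proteins. The letters searched on the sense strand of the 5′ UTR were C, any 5 bases and CAGTG, which occurred in 889 of 10476 members (8.49%) and in 4 of the 8 iron genes. Of the 889, 17.9% were high and 19.3% low, near the shares over all members, with a median log2 TE of 0.00. They are given with flanking bases, the searched letters in capitals, on GRCm38.
Fth1, chr19:9982734-9982755, plus strand: cctgCttcaaCAGTGcttgaac
Ftl1, chr7:45459784-45459805, minus strand: cttgCttcaaCAGTGtttgaac
Epas1, chr17:86753770-86753791, plus strand: caatCctcggCAGTGtcctgag
Slc40a1, chr1:45925470-45925491, minus strand: acttCagctaCAGTGttagcta
Fth1, the ferritin heavy chain, had 2796 and 6519 footprints against 23865 and 21627 mRNA reads, a log2 TE of −1.51 and −1.54. Ftl1, the light chain, had 44 and 99 over 483 and 414, or −1.86 and −1.87, with 4.4% of its coding sequence unique. Epas1, a hypoxia-inducible factor, stood at −0.40 and −0.49, and Slc40a1, the iron exporter ferroportin, at 0.47 and 0.66, neither called (edgeR adjusted p = 1.0 and 0.522). Tfrc, the transferrin receptor that takes up iron, had 0.52 and 0.56, and Aco1, iron regulatory protein 1, was high on both scales at 1.42 and 1.49. Fth1 was lower in sham cord, at −2.33 and −2.44, a difference of 0.87 (edgeR adjusted p = 1.54e-13).

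Polyamine genes had mixed values. Oaz1 and Oaz2, the antizymes made by frameshifting, were low as counted (−1.29 and −1.61, and −1.40 and −1.43) but not per unique position (0.21 and 0.36). Srm, spermidine synthase, was high at 1.11 and 0.98, and Odc1, the antizymes' target, stood at −0.46 and −0.28. Of 7 members 1 was high and 3 low, and only Sat1, which acetylates spermidine, was low on both scales.

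Among the gene lists, replication histones reached the highest values. These mRNAs end in a conserved stem-loop instead of a poly(A) tail, and the mRNA libraries were poly(A)-selected. Hist1h1e had 506 and 1303 footprints over 96 and 72 mRNA reads, a log2 TE of 3.97 and 4.36. Hist1h4d (4.15 and 4.05), Hist1h4h (3.69 and 3.52) and Hist2h4 (3.57 and 3.45) were high too. Hist1h1c, with 1078 and 2524 footprints over 2823 and 2498 mRNA reads, stood at 0.19 and 0.21, and Hist1h2bc was low at −1.73 and −1.71. The 8 members thus held 4 high and 1 low with a median of 1.88. The stem-loop was searched on the sense strand of the 3′ UTR as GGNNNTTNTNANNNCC, occurred in 282 of 10631 members (2.65%, median log2 TE −0.28), and was found in 7 of the 8 histones.
Hist1h1e, chr13:23621782-23621797, minus strand: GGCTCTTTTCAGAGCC
Hist1h4h, chr13:23531458-23531473, plus strand: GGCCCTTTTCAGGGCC
Hist1h4d, chr13:23581950-23581965, plus strand: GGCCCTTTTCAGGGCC
Hist2h4, chr3:96262939-96262954, minus strand: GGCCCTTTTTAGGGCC
Hist1h1c carried the same 16 bases as Hist1h1e, so that one sequence stood beside values of 0.20 and 4.17.

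The read minimum removed more histones than it kept. It left out 146 genes for mRNA reads alone, among them 19 of the replication histones and 33 protocadherins. Hist1h4c had 411 and 937 footprint reads over 52 and 40 mRNA reads, Hist1h1a 115 and 228 over 10 and 9, and Hist1h2bn 56 and 115 over 2 and 5. In the other direction 1415 genes failed on footprints alone. Of these, 66 had at least 1000 mRNA reads, and 41 of the 66 had under 50% unique coding sequence. Rpl27a showed 3 and 4 footprints over 972 and 829 mRNA reads, with none of its coding sequence unique. Ackr1, a chemokine-binding receptor of small veins, showed 13 and 37 over 2805 and 2430 with all of it unique. A further 9706 genes failed in both assays, 4468 of them without a read. The 10 members with exactly 128 footprint reads had a median log2 TE of −0.82 (−1.24 to 0.43), and the 10 genes at 127 a median of −0.30 (−1.65 to 0.53).

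Chaperones and glycolytic enzymes lay above the median gene. Of 26 chaperones 18 were high and 2 low, with a median of 0.96. Hspa5, the chief chaperone of the endoplasmic reticulum, had 5859 and 13918 footprints over 5189 and 4517 mRNA reads, a log2 TE of 1.75 and 1.82. Pdia3, a disulphide isomerase (1.66 and 1.66), and Calr, calreticulin (1.51 and 1.58), followed, and all 3 were high on both scales. Dnaja1, a cytosolic co-chaperone, was low at −2.22 and −1.93, with 4.9% of its coding sequence unique and 2.15 per unique position. Among 14 glycolytic enzymes 13 were high (median 1.00), from Gapdh at 2.67 and 2.70, with none of its coding sequence unique, through Pfkp at 1.34 and 1.27 to Pkm at 0.74 and 0.66. Ldha was the exception, at 0.01 and −0.04. Of 37 proteasome subunits 13 were high and none low (median 0.50), led by the deubiquitinase Psmd14 at 1.37 and 1.39. Per unique position the medians of these 3 lists were 0.63, 0.80 and 0.21. The chaperones then held 12 high and none low, the glycolytic enzymes 8 and none, and the proteasome 8 and 2, of which 2 were high on both scales. The 19 subunits of the vacuolar ATPase, which acidifies lysosomes, held 4 high and 3 low (median 0.24).

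Structural proteins of the axon lay high as counted and less so per unique position. Neurofilament, tubulin, spectrin and motor mRNAs fill much of a sensory neuron's output, and the 29 members of the neuronal cytoskeleton list took 4.60% of the mRNA reads but 6.77% and 6.79% of the footprints. Of these 29, 15 were high and 1 low, with a median of 0.67. Per unique position 7 were high and 3 low with a median of 0.22, and 6 were high on both scales. Dync1h1, the heavy chain of dynein, had 31822 and 73817 footprints over 22037 and 20154 mRNA reads, a log2 TE of 2.11 and 2.07. Sptan1, α-spectrin (1.78 and 1.80), and Ank2, ankyrin-B (1.42 and 1.45), were also high on both scales. Mapt, which encodes tau, was the only low member at −0.76 and −0.84 (−1.85 per unique position), and the growth-cone protein Gap43 stood at −0.51 and −0.42. Of 12 tubulins 9 were high and 1 low (median 1.05; per unique position 5 and none of 10, median 0.53), with Tubb5 at 1.37 and 1.35 and Tubb3, the neuronal β-tubulin, at 1.27 and 1.23. Tuba1a (0.32 and 0.29) and Tuba1b (−0.85 and −0.90) had at most 2.7% of their coding sequence unique.

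Laminin, integrin and collagen mRNAs were mostly high as counted. Of 24 laminins and integrins 16 were high and none low, with a median of 1.43, and 11 were high on both scales. Lama2, the laminin chain of Schwann cell and muscle basement membranes, had 1025 and 2483 footprints over 557 and 479 mRNA reads, a log2 TE of 2.46 and 2.57. Of 25 collagens 16 were high and 2 low (median 0.87). The high ones included Col12a1 (2.09 and 2.11), Col14a1 (2.01 and 2.17) and Col6a3 (1.92 and 1.82), and the low ones were Col16a1 (−0.77 and −0.84) and Col23a1 (−1.19 and −1.24). Coding sequence filled 80% of the Col12a1 transcript and 95% of the Col14a1 transcript, and per unique position the list medians were 0.74 (14 high and 2 low) and 0.33 (7 high and 5 low).

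Nuclear regulators lay on the opposite side. Of 33 splicing regulators 16 were low and 3 high (median −0.65), of 180 genes named Zfp 64 were low and 6 high (median −0.45), and of 14 Hox genes 10 were low and none high (median −0.98). All 3 medians stayed negative per unique position, at −0.85, −0.69 and −0.90. Snrnp70, a core protein of the U1 particle, had 399 and 889 footprints over 4881 and 4353 mRNA reads, or −2.03 and −2.10. Tia1, an RNA-binding protein of stress granules, had −2.67 and −3.01, and Hoxd8 had 75 and 172 over 1329 and 1162, or −2.56 and −2.56. Zfp652 was the lowest of its list with unique sequence, at −2.80 and −3.31, and Zfp382 the highest, at 2.30 and 2.26. Srsf1 was a high exception, at 1.70 and 1.69. Of 17 immediate early genes none was high and 2 were low (median −0.15), and Fos (0.76 and 0.11) and Junb (0.37 and 0.53) were not called.

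The pore-forming sodium channels of nociceptors were high as counted. Scn11a, which encodes Nav1.9, had 10917 and 25670 footprints over 8939 and 7933 mRNA reads, a log2 TE of 1.87 and 1.89, Scn10a (Nav1.8) had 1.37 and 1.36, and Scn9a (Nav1.7) had 0.91 and 0.94. Per unique position these were 0.89, 0.24 and 0.61, and only Scn11a was called on both scales. The auxiliary subunits Scn2b (−1.25 and −1.31) and Scn4b (−0.73 and −0.73) were low as counted but, with 14% of their transcripts coding, had 0.45 and 1.06 per unique position. Scn2a, the channel of central axons, had 53 and 138 footprints over 484 and 402 mRNA reads, or −1.60 and −1.35, and was low on both scales. Of 60 potassium channel genes 13 were high and 12 low (median 0.03; per unique position 19 and 14 of 59, median 0.33), from Kcnh6 (2.21 and 1.91) and Kcnh5 (2.01 and 2.18) to Kcnq3 (−1.85 and −1.89) and the auxiliary subunit Kcnmb4 (−2.27 and −2.40). Of 15 calcium channel genes 3 were high and 2 low (2 and 4 per unique position). The counts of both families as counted lay near the shares over all members. Cacna2d1, which encodes a binding site of gabapentin, was high on both scales at 0.81 and 0.93.

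Receptors and transducers of pain and temperature lay high as a list. Of 29 members 20 were high and none low, with a median of 0.76. Per unique position 13 were high and 1 low with a median of 0.47, and 10 were high on both scales. Beside P2rx3, the cold channel Trpm8 had 603 and 1399 footprints over 266 and 245 mRNA reads, a log2 TE of 2.76 and 2.70. Oprm1, the µ-opioid receptor, had 871 and 2055 over 592 and 495, or 2.14 and 2.25. The capsaicin receptor Trpv1 (1.15 and 1.17) and the irritant channel Trpa1 (1.02 and 1.15) were high as counted and stood at 0.46 and 0.31 per unique position. Ntrk3, the receptor of proprioceptive and some touch neurons, stood at −0.41 and −0.41 and was not called.

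No neuropeptide or granin gene was low. Of 22 such genes 7 were high (median 0.27), as were 7 per unique position (median 0.34). Pcsk1, a prohormone convertase, had 1230 and 2965 footprints over 1396 and 1279 mRNA reads, or 1.40 and 1.41, and the granins Scg2 (1.35 and 1.42) and Scg3 (1.30 and 1.37) were alike. Calca, which encodes CGRP, had 9417 and 22011 over 33809 and 30579, or −0.27 and −0.28, and Tac1, the substance P precursor, −0.57 and −0.52. Neither was called. Of 29 synaptic vesicle genes 10 were high and 6 low (13 and 1 per unique position). Rab3a, a vesicle GTPase, had 1.99 and 1.88 (1.88 per unique position) and Syn1, synapsin I, 1.34 and 1.31. Cplx2, complexin 2, had 726 and 1778 over 11862 and 10619, or −2.45 and −2.39, with 8% of its transcript coding and 0.11 per unique position. Vamp2, a vesicle SNARE, likewise went from −0.99 ± 0.01 (SD, n = 2) to 0.64.

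Markers of the cell types in the ganglion did not share one level, and several lists moved with the scale. Of 10 sensory neuron markers 6 were high and 1 low (median 0.71), but per unique position 2 were high and 1 low (median 0.05). They ran from Avil, an actin-binding protein (1.75 and 1.76), to the transcription factor Pou4f1 (−0.69 and −0.76). None of 15 Schwann cell and myelin genes was high and 5 were low (median −0.10), among them S100b, with 2696 and 6525 footprints over 26489 and 24194 mRNA reads (−1.72 and −1.70, and −0.29 per unique position, where it was not called). On that scale 3 genes of this list were high and 4 low (median −0.29). Satellite glia (3 high and none low of 10), fibroblasts (6 and none of 8), macrophages (6 and none of 14), neutrophils (4 and none of 5), muscle (5 and none of 10) and endothelium (3 and 1 of 12) had positive medians of 0.40, 0.74, 0.53, 1.22, 0.78 and 0.36. Per unique position these were 0.59, 0.79, 0.12, 1.16, 0.05 and 0.11. Among 6 erythroid genes 4 were low, all of them globins with at most 7.5% unique coding sequence, and Hbb-bs stood at −2.24 and −2.27. Muscle and neutrophil genes took 0.0122% and 0.0110% of the mRNA reads of lysate 1, and their part in other values was not tested.

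The ranking was nearly the same after nerve injury. Between the means of the sham and SNI lysates the Pearson correlation over 10773 genes was 0.99, and these libraries share the tissue and gene structures. Of the high genes 2067 (95.7%) were more than 1.5-fold above the median gene in both SNI lysates, and of the low genes 2090 (94.7%) were as far below. None lay beyond that line on the opposite side in both. Of the genes high or low on both scales, 885 of 903 and 1069 of 1113 did the same. Tpbg stood at 5.27 and 5.43 in SNI, Atf4 at −1.81 and −1.83 and Selenow at −2.47 and −2.52. Zfand1 differed more, with 3.53 and 3.37 in SNI against 5.13 and 5.09, as did Ankrd60, with 3.18 and 2.76 against 1.32 and 1.90. These differences between surgeries were not tested here.

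In the dorsal spinal cord the ranking was similar but less so. Over the 9741 genes that passed the minimum in both tissues the Pearson correlation was 0.92. Of the high genes 1509 of 1982 (76.1%), and of the low genes 1568 of 2005 (78.2%), lay beyond 1.5-fold on the same side in both cord lysates. In both of those lysates, 15 of the high and 20 of the low genes lay across the median gene, at any distance from it. With edgeR's test of the difference itself against 1.5-fold, 112 genes (1.15%) had a higher and 107 (1.10%) a lower TE in DRG. DESeq2 gave 26 and 29, and without DRG sham lysate 2 edgeR gave 73 and 63. Gfap, the intermediate filament of astrocytes, was among the lower ones, with −1.26 and −1.06 in DRG against 0.25 and 0.21 in cord. Stmn3, a tubulin-binding protein of neurons, had −0.42 and −0.45 in DRG against 0.64 and 0.61, a difference of −1.06 (edgeR adjusted p = 1.82e-44).

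The widest gaps between the tissues belonged to single genes. Tpbg had 740 and 1083 footprints over 1790 and 1451 mRNA reads in cord, a log2 TE of 0.77 and 0.79, which is 4.74 below DRG. Usp12, a deubiquitinase, had 1.87 and 1.92 in DRG and −1.30 and −1.30 in cord. Slit3, a guidance cue related to Slit1, had 2.54 and 2.51 against 0.74 and 0.74. In the other direction, Slc4a3, an anion exchanger, had 39 and 128 footprints over 1130 and 1036 mRNA reads in DRG, or −3.26 and −2.82, against −0.51 and −0.40 in cord. Scn2a went from −1.60 and −1.35 to 0.28 and 0.34, and Slc12a5, the chloride exporter KCC2 of central neurons, from −0.62 and −0.84 to 1.01 and 1.03. Arpc1a, a subunit of the Arp2/3 complex, went from −1.59 and −1.42 to 0.29 and 0.19. P2rx3 could not be compared, since cord held 7 and 15 footprints and 52 and 35 mRNA reads.

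**Figure D5:**
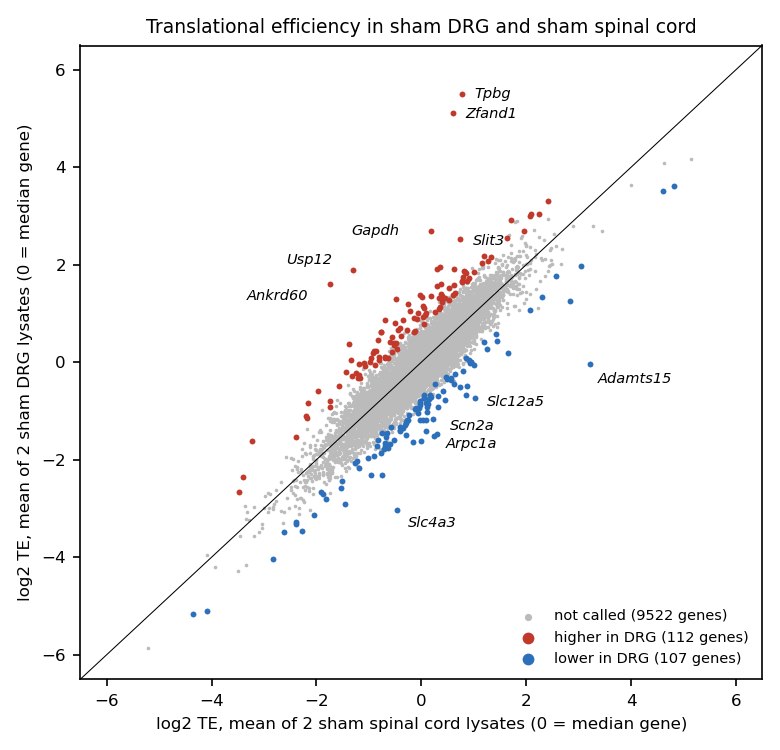
Log2 TE of 9741 genes in sham cord (horizontal axis, mean of 2 lysates) and sham DRG (vertical axis, mean of 2 lysates), with the 112 genes higher and 107 lower in DRG marked. Tpbg and Zfand1 lie farthest above the diagonal, 4.74 and 4.48 above their cord values, and Adamts15 and Slc4a3 lie below it.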

How the data were processed

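Footprint and mRNA-seq counts per gene were deposited for 16 libraries. Per the labels and methods, the authors filtered ribosomal and transfer RNA out with Bowtie 1.1.2, mapped what was left to GRCm38.p5 using STAR 2.5.2b and counted with HTSeq. The methods describe the sequencing as not strand-specific, so genes overlapping on opposite strands cannot be told apart; the region counted is not given in the sources used here. The deposited RPKM, the TE ratio columns and the authors' lengths enter no value given here. Members and gene lists were chosen with earlier results of these data known.

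Counts were fitted with edgeR 4.0.16 in R 4.3.3 (quasi-likelihood, glmTreat at 1.5-fold, Benjamini-Hochberg over all genes tested). The fit used the 8 DRG libraries, with a term for each lysate because each was split into both assays, and scaling to the median gene. The cord contrast used the 8 sham libraries. Plotted and per-lysate values added 0.5 reads. The fits were tested on simulated data. Unique 30-base positions, transcripts and sequences came from GENCODE M21. Named genes were the 12 highest and 12 lowest called, the same among genes with 2000 reads per assay, up to 3 at each end of every list, all of 6 short lists, up to 6 left out on each side and the 6 widest differences from cord in each direction; others (Eif4g2, Gfap, Stmn3, Trpa1, Trpv1) and the lowest with 90% unique sequence were picked after values were seen. Values of some genes that this rule names are not reported here. DESeq2 1.42.0 and Python 3.11.15 served for alternatives and tables.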

Additional observations from a re-analysis of the deposited data

Results flagged for a closer look

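For 12 named genes the TE differed between sham DRG and sham cord by edgeR's test of the difference itself against 1.5-fold. Log2 TE was higher in DRG by 4.74 for Tpbg, 4.48 for Zfand1, 3.34 for Ankrd60, 3.21 for Usp12, 2.51 for Gapdh and 1.79 for Slit3. The difference, DRG minus cord, was −3.27 for Adamts15, −2.50 for Slc4a3, −1.78 for Slc12a5, −1.75 for Scn2a, −1.71 for Arpc1a and −1.59 for Pcgf1. The 2 lysates of each tissue lay on the same side of the other tissue's lysates in all 12. In Gapdh none of the coding sequence was unique and in Zfand1 18.5% was, and the part of shared sequence in these differences was not tested. Ankrd60 stood at 1.32 and 1.90 in sham DRG, 3.18 and 2.76 in SNI DRG, and −2.38 and −1.08 in cord, so that its lysates lay farther apart than those of the other 11 genes in cord. Adamts15, a secreted protease, had 222 and 508 footprints over 641 and 627 mRNA reads in DRG and 348 and 625 over 169 and 142 in cord.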

How the results depend on the processing

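The counts of 2161 high and 2207 low genes depended most on the fold tested: 920 and 1076 against 2-fold, and 4589 and 4595 against no difference. Leaving out a lysate gave 1930 to 2151 high and 1963 to 2203 low genes, and the fit without the replicate block, which drops the pairing of footprint and mRNA libraries by lysate, gave 2169 and 2217. DESeq2 gave 1585 and 1599. A coefficient of variation fixed at 0.1, in place of an estimate of 0.0099 that rests on 2 residual degrees of freedom, gave 1644 and 1729. Some settings also changed the number of genes tested, which was 10773 in the main fit. A minimum in every sham library gave 1513 and 1550 of 7587. With genes of unique coding sequence only there were 1762 and 1827 of 8957.

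The counts of 112 and 107 genes that differed from cord were less firm. They became 26 and 29 with DESeq2 and 21 and 17 with the fixed coefficient of variation. Without the read filter they were 148 and 164 of 18159 genes tested, and against no difference 2315 and 2375 of 9741. Leaving out a lysate gave 73 to 93 higher and 63 to 92 lower genes, with the fewest without DRG sham lysate 2. Without the replicate block they were 114 and 110. The cause of these shifts was not tested.

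No named gene changed direction except per unique position, a scale chosen after the data were seen. There Eif4e became 1.98, Dnaja1 2.15, Ntrk3 1.45, Scn4b 1.06, Eif4ebp2 0.67, Vamp2 0.64, Scn2b 0.45, Oaz2 0.36, Oaz1 0.21, Cplx2 0.11, Pou4f1 0.038 and Msrb1 0.030. List medians changed sign on that scale for elongation factors with other pyrimidine-tract mRNAs, and for sodium and calcium channels. They also did so for the mTOR pathway, polyamine, immediate early and mitochondrial ribosome genes. Genes near 128 reads carry the widest counting error, and no setting separates the region counted from TE.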
